A study of Mus musculus with 48 samples.

Results

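Germ cells of the MEHP lineage were compared with germ cells of the control lineage for all miRNAs counted in them. The comparison used 16 of the 48 small RNA libraries of the series, chosen by their labels: the 8 MEHP and the 8 control libraries of the primordial germ cell (PGC) fraction. All came from wild-type female CD1 mouse embryos at embryonic day 13.5, when the gonad is an early ovary. In the MEHP lineage the founding pregnant female drank mono(2-ethylhexyl) phthalate (MEHP) through the first 13 days of pregnancy, at a daily 35 mg per kg of body weight, and in the control lineage only the vehicle, DMSO at 0.3%, which the MEHP water held too. F1 embryos were in the uterus during that exposure. F2 and F3 embryos descend from them through the female line, and F2Sy is a second generation with both parents from the exposed lineage. Each class held 2 libraries per lineage. Each library came from a pool of about 80 gonads freed of mesonephros, from which germ cells were held on a magnetic column by an antibody to CD15, at a purity of 93 to 96% per the labels. The rest of each pool is the somatic (SC) fraction. Nothing in the labels states that the 2 libraries of a class were made from separate pools or litters. The p-values therefore measure no more than how far such libraries lie apart, and that distance may be technical.

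MEHP is the monoester that gut enzymes make from the phthalate plasticiser DEHP, and it reaches the fetus. A miRNA is a short RNA that guides Argonaute proteins to messenger RNAs, mainly through its seed, bases 2 to 8, and represses them. At this age germ cells of the ovary still express pluripotency genes and are entering meiosis, and the miR-290-295 and miR-302-367 clusters are known from pluripotent cells and from germ cells. miRNAs that share a seed can share targets, whatever their chromosome.

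The mature sequences below are those of the miRNAs that the results turn on, from RefSeq (GRCm38.p6), with the seed in capitals. They fall into groups by seed. miR-200b-3p, miR-429-3p and miR-200c-3p share one seed, and miR-200a-3p has another that differs from it. miR-200a, miR-200b and miR-429 are encoded together on chromosome 4 and miR-200c on chromosome 6. miR-10a-5p and miR-10b-5p share a seed and lie within different Hox gene clusters, and miR-294-3p and miR-302d-3p share the seed of the pluripotency clusters.
miR-200a-3p: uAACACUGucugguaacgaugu
miR-200b-3p: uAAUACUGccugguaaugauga
miR-429-3p: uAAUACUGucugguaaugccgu
miR-200c-3p: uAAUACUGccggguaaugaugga
miR-10a-5p: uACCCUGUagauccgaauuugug
miR-10b-5p: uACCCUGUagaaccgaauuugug
miR-204-5p: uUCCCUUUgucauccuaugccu
miR-294-3p: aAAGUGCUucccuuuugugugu
miR-302d-3p: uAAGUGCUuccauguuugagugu
miR-743a-3p: gAAAGACAccaagcugaguaga
miR-199b-3p: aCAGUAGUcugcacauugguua
let-7d-5p: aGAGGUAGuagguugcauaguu

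Listed counts summed to 4965423 to 7946140 per MEHP library and 4001293 to 7915037 per control library, and the group means did not differ beyond their spread (two-sided exact permutation within classes, p = 0.901; smallest possible 0.00154). A MEHP library listed 385 ± 7.5 miRNAs and a control library 387 ± 16.8 (SD, n = 8 each; exact permutation p = 0.812). The 2 libraries of a MEHP or control class correlated with r of 0.949 to 0.975 across miRNAs on the log2 scale. Those of the lineage exposed to vinclozolin, which enter the same fit, ran from 0.837 in F2Sy to 0.990 in F2. The table leaves cells blank and a blank is not known to be 0, so the tests covered the 303 miRNAs listed in all 24 PGC libraries, which held 99.2 to 99.5% of listed counts. Of the other 260 miRNAs, 18 were listed in all 16 libraries, 128 in some and 114 in none. The germ cell label was checked against markers of both fractions: the X-linked germline miRNA miR-465c-3p stood at 15142 to 35563 CPM (counts per 1000000 listed counts of the library) in control PGC and at 157 to 1714 CPM in control SC, and the mesenchymal miR-199b-3p at 1344 to 4223 CPM and 25047 to 36038 CPM, in the same order.

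Averaged over the 4 classes, the MEHP lineage carried the germ cell miRNAs at levels close to control. None of the 303 miRNAs passed (0%) by edgeR's quasi-likelihood test, where the lowest adjusted p was 0.995 after the Benjamini-Hochberg correction, and DESeq2 called 0. At an unadjusted p under 0.05 edgeR listed 5 miRNAs (1.65%) and DESeq2 listed 5. The 5 of edgeR were all higher in MEHP: miR-200a-3p, miR-200b-3p and miR-429-3p of the epithelial miR-200 family, the Hox cluster miRNA miR-10a-5p, and miR-204-5p. Over the 303 miRNAs the log2 fold change had a median of 0.01 and a median size of 0.09. The 95% interval of the mean effect lay within 1 log2 unit of 0 for 288 of the 303 (95%), with a median half-width of 0.41. For these 288 miRNAs a doubling or halving that all classes share lies outside the interval. Among the other 15 were miR-10a-5p, miR-204-5p and miR-3968.

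**Figure D1:**
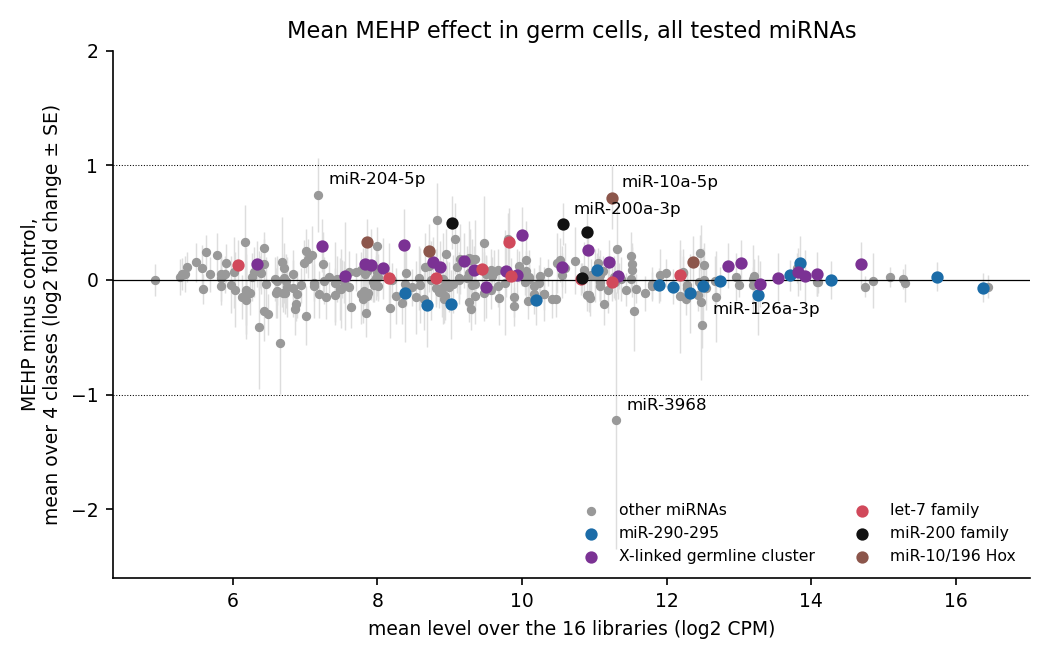
Mean MEHP effect on each of 303 miRNAs (y axis, log2 fold change MEHP minus control, averaged over 4 classes, bars ± SE) against its mean level in the 16 libraries (x axis, log2 CPM). Dots mark miRNAs, coloured for 5 lists; dotted lines stand at 1 and -1. Most dots lie near 0, miR-10a-5p and miR-204-5p stand at 0.72 and 0.74, and miR-3968 at -1.23 has a wide error.

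As a mean over classes, the abundant germ cell miRNAs lay near control with narrow intervals. miR-92a-3p of the miR-17-92 cluster, which promotes proliferation, stood at 75806, 92639.5 and 106040 CPM in control (lowest, median and highest of 8 libraries) and at 69877, 88323 and 101390 CPM in MEHP. Its mean log2 fold change was -0.06 ± 0.10 (SE). miR-292a-3p and miR-293-3p of the miR-290-295 cluster stood at -0.07 ± 0.13 and 0.03 ± 0.12, and miR-183-5p, of a cluster shared by germ and sensory cells, at -0.02 ± 0.16 (log2 fold change, SE). In each of these miRNAs the libraries of both lineages overlapped, as they did in all 303 tested. Over the 12 miRNAs with the highest CPM the mean effects ran from -0.07 for miR-292a-3p to 0.14 for miR-465c-3p.

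The miR-200 family is known for keeping epithelial cells epithelial by repressing Zeb transcription factors, and its members miR-200a, miR-200b and miR-429 come from 1 transcript. Such counts come from bulk RNA, in which fewer cells of a type and less RNA per cell cannot be told apart. miR-200a-3p stood at 936, 1254 and 1776 CPM in control and at 963, 1629 and 2986 CPM in MEHP (lowest, median, highest). Of 8 MEHP libraries 4 lay above the highest control library, and the groups overlapped; the mean log2 fold change was 0.49 ± 0.18 (SE; edgeR unadjusted p = 0.0172, adjusted p = 0.995). miR-200b-3p stood at 264, 445 and 593 CPM in control and at 322, 540 and 1085 CPM in MEHP, a log2 fold change of 0.50 ± 0.23. miR-429-3p stood at 1283, 1642 and 1944 CPM and at 1312, 1845 and 3650 CPM, a log2 fold change of 0.42 ± 0.17. For each of these 2 miRNAs 3 MEHP libraries exceeded every control library. miR-200c-3p, with the seed of miR-200b-3p but on another chromosome, stood at 0.02 ± 0.13. Its mean in control SC was 0.0509 times that in control PGC, against 0.904 times for miR-200b-3p. The tested family had 4 members of 5 in the table, none called and all with a positive mean effect, with a median of 0.45 beside 0.01 over all 303. Without library 1 of MEHP F1 that median was 0.25. All 4 members were positive in F1, F2 and F3, but 0 of 4 were positive in F2Sy. Their F1 median was 0.61, and -0.07 without library 1 of MEHP F1. Their F2Sy median was -0.24, and 0.13 without library 1 of control F2Sy.

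miR-10a-5p, which is encoded in the Hoxb cluster, stood at 1052, 1803 and 2422 CPM in control and at 1015, 2173 and 6464 CPM in MEHP. Its lowest library and its highest were both MEHP F1 libraries. The log2 fold change was 0.72 ± 0.28 (SE; edgeR unadjusted p = 0.0184). Its seed partner miR-10b-5p, of the Hoxd cluster, stood at 0.15 ± 0.23. All 4 tested Hox cluster miRNAs (of 6 in the table) had a positive mean effect and none was called, with a median of 0.29, which was 0.05 without library 1 of MEHP F1.

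miR-204-5p, which is encoded within Trpm3 and is known from the eye, stood at 60, 84 and 139 CPM in control and at 36, 105 and 445 CPM in MEHP. The log2 fold change was 0.74 ± 0.32 (SE; edgeR unadjusted p = 0.0341).

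These 5 miRNAs shared their 3 highest libraries out of 16: library 1 of MEHP F1 and both libraries of MEHP F3. No other of the 303 miRNAs had this same set of 3, which was noticed after the values were seen. In library 1 of MEHP F1 miR-10a-5p reached 6464 CPM, against 1015 CPM in library 2 of that class. In MEHP F3 it stood at 4733 and 4850 CPM, against 2039 and 1980 CPM in control F3. Without library 1 of MEHP F1 the mean log2 fold changes were 0.32 for miR-200a-3p, 0.27 for miR-200b-3p, 0.23 for miR-429-3p, 0.25 for miR-10a-5p and 0.37 for miR-204-5p, and 0 of 303 miRNAs had an unadjusted p under 0.05. Without library 2 of MEHP F1 miR-10a-5p stood at 0.92 and was the 1 miRNA called (edgeR adjusted p = 0.0383).

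**Figure D2:**
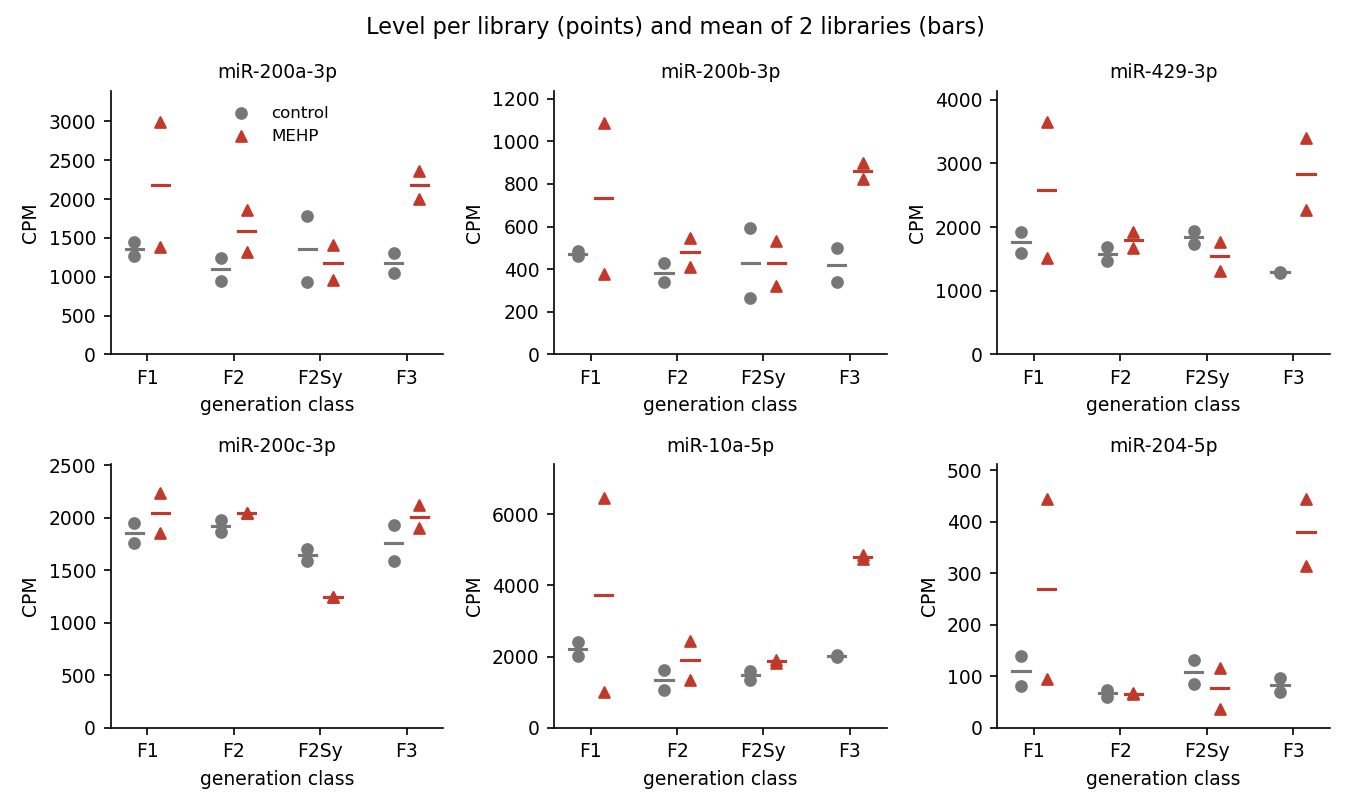
Level of 6 miRNAs (y axes, CPM) in each germ cell library by generation class (x axes); grey circles are control, red triangles MEHP, and bars the mean of 2 libraries. One MEHP F1 library and both MEHP F3 libraries are the highest for 5 of the 6 miRNAs, while miR-200c-3p spans 1245 to 2236 CPM in MEHP and 1587 to 1982 CPM in control.

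Markers of ovarian somatic cells did not stand apart in all 3 of these libraries. The ovarian somatic list (miR-202, miR-503 and miR-351; 3 of 6 members tested, 1 never listed in the 16) summed to 2426 CPM in library 1 of MEHP F1 and to 9033 and 2086 CPM in libraries 1 and 2 of MEHP F3, beside 1502 to 5922 CPM in control. The mesenchymal list (5 of 10 members tested, 2 never listed) summed to 5376, 11096 and 6211 CPM, beside 4457 to 8726 CPM in control. Library 1 of MEHP F3 thus held more of both lists than any control library, and the other 2 of the 3 lay within the control range. miR-10a-5p was 6.26 times higher in control SC than in control PGC, whereas the ratio was 1.01 for miR-200a-3p and 1.07 for miR-204-5p. The part of somatic cells in these values was not tested.

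On the lower side no miRNA had an unadjusted p under 0.05. The smallest p belonged to miR-126a-3p, a marker of endothelial cells, at 3699, 5993 and 10410 CPM in control and at 2271, 4442 and 11495 CPM in MEHP. The highest library of all was library 2 of MEHP F2, and the log2 fold change was -0.39 ± 0.21 (SE; edgeR unadjusted p = 0.0769). It stood at 24026 to 30552 CPM in control SC. miR-30d-3p followed at -0.30 ± 0.18, then miR-219a-2-3p, miR-466o-5p, miR-34b-3p and miR-466c-5p, between -0.21 and -0.29. The 1 miRNA with a mean effect beyond 1 log2 unit, miR-3968, was picked out after its values were seen. It ran from 133 to 14989 CPM in control and from 114 to 6096 CPM in MEHP, and its log2 fold change was -1.23 ± 1.12 (SE).

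Within single classes, where 2 libraries met 2, again no miRNA passed in any class by edgeR or DESeq2. Unadjusted p-values under 0.05 were few in F1 (1 of 303, 0.33%), F2 (0) and F3 (9, 2.97%), and more in F2Sy (27, 8.91%; 16 higher and 11 lower in MEHP). DESeq2 gave 4, 0, 10 and 35 in F1, F2, F3 and F2Sy. The libraries of MEHP and control did not overlap for 23.1% of miRNAs in F1 (8.58% with MEHP above, 14.5% below), 25.7% in F2 (9.57% above, 16.2% below), 49.5% in F2Sy (28.4% above, 21.1% below) and 18.2% in F3 (8.58% above, 9.57% below). Where 2 libraries meet 2, such separation is common even with labels assigned at random. For a single miRNA it is therefore no support for a difference. The median size of the fold change was 0.27 in F1, 0.16 in F2, 0.38 in F2Sy and 0.16 in F3 on the log2 scale. The median half-width of the 95% interval was 0.83 in each class. It lay within 1 log2 unit of 0 for 38.9%, 49.2%, 30.4% and 48.5% of miRNAs in F1, F2, F2Sy and F3, and the intervals of the others reached a doubling or a halving.

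In MEHP F2Sy germ cells the summed X-linked germline cluster stood higher than in any other of the 16 libraries, and the miR-302-367 and miR-290-295 pluripotency clusters stood below control F2Sy. The X-linked cluster (miR-463, miR-465, miR-470, miR-741, miR-743, miR-871, miR-881 and others) is a fast-evolving group of germline miRNAs. Its summed level was 20.3 and 22.6% of listed counts in MEHP F2Sy and 13.6 and 13.0% in control F2Sy. The other MEHP libraries held 8.52 to 13.0%. Control libraries ran from 6.96 to 18.2%. These ends came from F3 and F1, whose other control libraries held 14.6 and 7.56%. Of 27 tested members 26 had a positive effect and 23 had both MEHP F2Sy libraries above both controls, beside 28.4% of all 303. None was called, and 7 had an unadjusted p under 0.05, beside 8.91% of all 303. The median was 0.78 beside 0.01 over all miRNAs, and stayed between 0.73 and 0.87 when any 1 library was left out.

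miR-743a-3p, a member named after its values were seen, stood at 735 and 713 CPM in control F2Sy and at 2339 and 1476 CPM in MEHP F2Sy. Its groups did not overlap, and the log2 fold change was 1.38 ± 0.49 (SE; edgeR unadjusted p = 0.0125, adjusted p = 0.506). miR-465c-3p, the most abundant member, stood at 31245 and 27018 CPM in control and at 41465 and 49865 CPM in MEHP, a log2 fold change of 0.64 ± 0.38. In both miRNAs the MEHP F2Sy libraries were the 2 highest of the 16.

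The miR-302-367 cluster had 4 tested members, each with both MEHP F2Sy libraries below both controls, beside 21.1% of all 303, and their median was -0.94. miR-302d-3p stood at 648 and 793 CPM in control and at 384 and 371 CPM in MEHP, the 2 lowest of the 16 libraries, with a log2 fold change of -0.94 ± 0.35 (SE; edgeR unadjusted p = 0.0156). Without any 1 library the cluster's median ran from -1.08 to -0.69. In the miR-290-295 cluster 1 of 16 members was positive, with a median of -0.37, and 5 did not overlap, all below. Its sum was 18.8 and 17.1% of listed counts in MEHP F2Sy and 20.5 and 22.9% in control. miR-294-3p, which shares the seed of miR-302d-3p, stood at 15757 and 18310 CPM in control and at 13280 and 14506 CPM in MEHP. Without library 2 of control F2Sy the median of the miR-290-295 cluster was 0.00. The miR-297, miR-466, miR-467 and miR-669 families, most of which lie in an intron of Sfmbt2, had 0 of 22 members positive, 16 below without overlap and a median of -0.46. Near-identical members of these families and of the clusters above can share reads, and how such reads were counted is not stated, so single members are uncertain.

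The let-7 family and the Dlk1-Dio3 cluster also stood mostly above control F2Sy. The let-7 family, whose maturation Lin28 blocks in pluripotent cells, had 9 of 9 members positive, 6 of them above control without overlap (28.4% of all 303) and a median of 0.96, which ran from 0.56 to 1.32 when any 1 library was left out. Its sum was 1.31 and 1.88% of listed counts in MEHP F2Sy and 0.77 and 1.24% in control F2Sy. Over all 8 control libraries it ran from 0.77 to 1.55%. let-7d-5p stood at 290 and 394 CPM in control and at 644 and 782 CPM in MEHP, a log2 fold change of 1.05 ± 0.51 (SE). In the imprinted Dlk1-Dio3 cluster 24 of 27 tested members were positive and 18 lay above without overlap, with a median of 0.41. The cluster summed to 1.21 and 1.38% of listed counts in MEHP F2Sy and 0.90 and 0.93% in control F2Sy. Over all 8 control libraries it ran from 0.90 to 1.27%. Of its 78 members in the table, 39 were never listed in the 16 libraries.

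The smallest p in F2Sy belonged to miR-199b-3p, a mesenchymal marker, at 1519 and 2305 CPM in control and at 3808 and 6878 CPM in MEHP. Its groups did not overlap, and the log2 fold change was 1.48 ± 0.44 (SE; edgeR unadjusted p = 0.00362, adjusted p = 0.506). miR-28a-5p stood at 76.8 and 89.5 CPM in control and at 162 and 231 CPM in MEHP, and miR-199a-5p at 295 and 236 CPM and at 623 and 1319 CPM. Their log2 fold changes were 1.24 ± 0.39 and 1.87 ± 0.63. miR-199b-3p and miR-28a-5p were 12.5 and 9.67 times higher in control SC than in control PGC.

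The mesenchymal and ovarian somatic lists stood on the higher side in MEHP F2Sy, as did let-7 (9 of 9 positive) and Dlk1-Dio3 (24 of 27). Among clusters known from germ cells, both pluripotency clusters and the miR-183 cluster (0 of 4 positive, median -0.42) stood lower. The X-linked cluster went the other way. The blood, endothelial and muscle markers did not all stand on one side. All 5 tested mesenchymal members were positive, and the list summed to 0.79 and 1.33% of listed counts in MEHP and 0.45 and 0.55% in control. The ovarian somatic list had 3 of 3 positive and summed to 0.25 and 0.40% in MEHP and 0.15 and 0.29% in control. The red blood cell marker miR-451a stood at 961 and 1378 CPM in control and at 989 and 2116 CPM in MEHP, and the endothelial miR-126a-3p at 3699 and 5274 CPM and at 2271 and 4455 CPM. The muscle miRNA miR-206-3p stood at 144 and 141 CPM in control and at 461 and 537 CPM in MEHP. It lay at 14.6 to 24.8 CPM in the 3 control SC libraries of 8 that listed it, and the other 2 muscle miRNAs of the list were listed in none of the 16. Of the X-linked cluster, miR-465c-3p was 0.0384 times as high in control SC as in control PGC. The part of other cells in the F2Sy values was not tested.

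**Figure D3:**
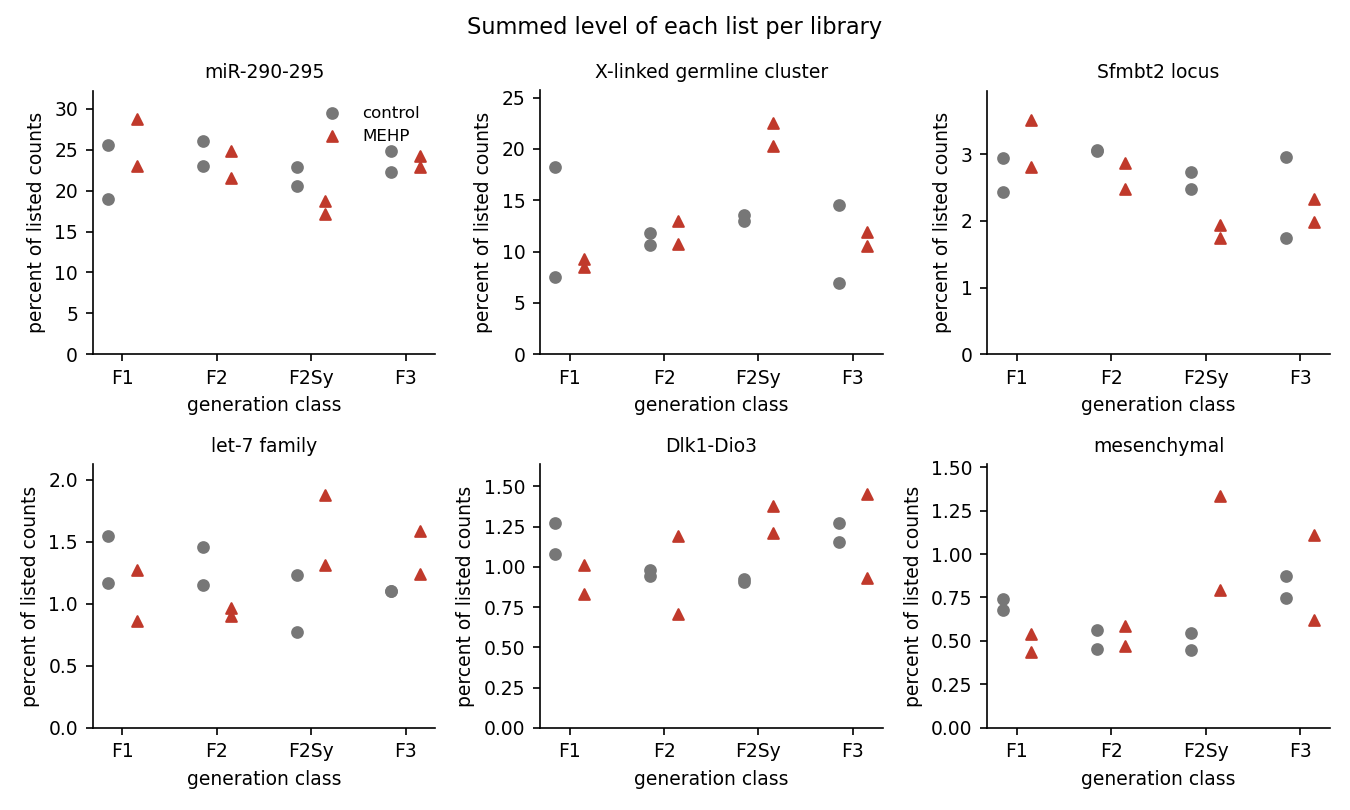
Summed level of 6 lists (y axes, percent of listed counts) in each germ cell library by generation class (x axes); grey circles are control and red triangles MEHP, 2 libraries each. In F2Sy the MEHP libraries lie above both controls for the X-linked, let-7, Dlk1-Dio3 and mesenchymal lists and below them for miR-290-295 and Sfmbt2, and control F1 and F3 differ widely within themselves for the X-linked list.

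In F1, whose embryos were exposed directly, several of the same lists stood on the other side. The X-linked cluster had 1 of 27 members positive and a median of -0.43, let-7 0 of 9 and -0.47, and Dlk1-Dio3 4 of 27 and -0.28. The Sfmbt2 families had 21 of 22 positive and a median of 0.23, miR-17-92 and its paralogs 17 of 17 and 0.23, miR-290-295 15 of 16 and 0.28, and miR-302-367 4 of 4 and 0.45. The X-linked sum was 8.52 and 9.28% of listed counts in MEHP F1 and 18.2 and 7.56% in control F1, so MEHP lay between the controls. Without library 1 of control F1 the F1 median of the X-linked cluster was 0.31, let-7 stood at -0.10, miR-290-295 at 0.03, the Sfmbt2 families at 0.04 and miR-17-92 at 0.02. Without library 1 and without library 2 of MEHP F1 the medians were -0.60 and -0.15 for Dlk1-Dio3 and 0.65 and 0.19 for miR-302-367, and let-7 stood at -0.85 without the first. Without library 2 of control F1 they were -0.92 and 0.68 for the X-linked and miR-290-295 lists, and 25 miRNAs had an unadjusted p under 0.05, against 15 without library 1 of MEHP F1. The direction of the X-linked list in F1 thus turned when library 1 of control F1 was left out.

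The miRNA with the smallest p in F1 was miR-203-3p, known from stratified epithelia, at 73 and 67 CPM in control and at 141.5 and 90.3 CPM in MEHP. Its libraries did not overlap, and the log2 fold change was 0.74 ± 0.29 (SE; edgeR unadjusted p = 0.0213, adjusted p = 0.996). miR-293-5p and miR-291b-3p of the miR-290-295 cluster followed, at log2 fold changes of 0.63 ± 0.30 and 0.56 ± 0.27.

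Across the 303 miRNAs the fold changes of F1 and F2Sy, which share no library, correlated with r = -0.50 (Spearman's rho -0.54), and 209 miRNAs (69%) had opposite signs. miRNAs of a cluster are transcribed together and all miRNAs of a library share its total, so these points are not independent. Without library 1 of control F1 r was -0.22, and over the other libraries left out it ran from -0.58 to -0.26. The other pairs of classes stood between -0.21 (F2 and F3) and 0.10 (F2 and F2Sy), and 4 of these 5 changed sign with single libraries. The value for F2 and F2Sy was -0.35 without library 1 of control F2 and 0.36 without library 2. For F2Sy and F3 it ran from -0.43 to 0.34, for F1 and F3 from -0.29 to 0.25, for F1 and F2 from -0.17 to 0.19, and for F2 and F3 from -0.25 to -0.04.

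**Figure D4:**
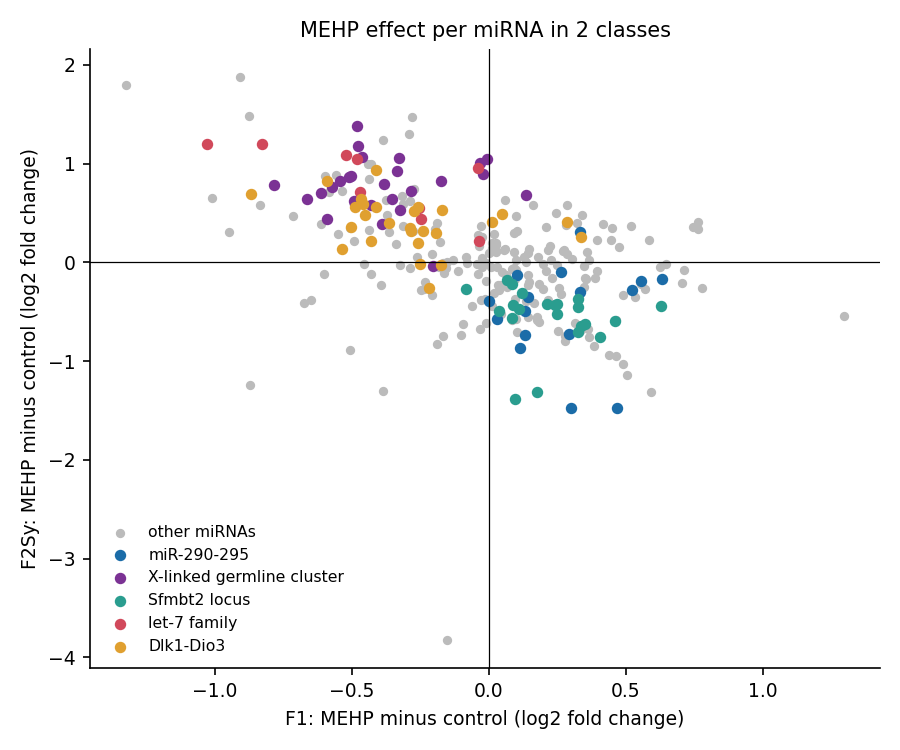
MEHP effect on each of 303 miRNAs in F1 (x axis) and in F2Sy (y axis), both as log2 fold change MEHP minus control. Dots are miRNAs, coloured for 5 lists. X-linked, let-7 and Dlk1-Dio3 members lie mostly at the upper left and miR-290-295 and Sfmbt2 members mostly at the lower right, with r = -0.50; the dot at -3.82 is miR-3968.

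In F2 the medians of the X-linked and miR-290-295 lists were 0.02 and -0.01. miR-196b-5p, encoded in the Hoxa cluster, had the smallest p, at 150 and 163 CPM in control and at 214 and 327 CPM in MEHP, a log2 fold change of 0.82 ± 0.40 (SE; edgeR unadjusted p = 0.0567). let-7d-5p stood at 424 and 494 CPM in control and at 333 and 157 CPM in MEHP, a log2 fold change of -0.86 ± 0.51, opposite in sign to F2Sy. In neither miRNA did the groups overlap. The let-7 family had 0 of 9 members positive in F2, with a median of -0.40, which was -0.60 without library 1 of control F2 and -0.13 without library 2. miR-346-5p, the remaining one of the 3 smallest p-values, stood at 0.51 ± 0.28.

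In F3, whose germ cells were never exposed themselves, the smallest p-values belonged to miR-204-5p, miR-429-3p of the miR-200 family and miR-192-5p. Of the 9 miRNAs under an unadjusted p of 0.05, 7 were higher and 2 lower. Their number became 3 without library 2 of MEHP F3, 4 without library 2 of control F3 and 20 without library 1 of control F3. miR-204-5p stood at 70 and 97 CPM in control F3 and at 314 and 445 CPM in MEHP F3, a log2 fold change of 2.19 ± 0.67 (SE; edgeR unadjusted p = 0.0045, adjusted p = 0.615). miR-429-3p stood at 1283 and 1297 CPM in control and at 2272 and 3406 CPM in MEHP, a log2 fold change of 1.14 ± 0.35. miR-192-5p, which p53 induces, stood at 230 and 179 CPM in control and at 406 and 452 CPM in MEHP, a log2 fold change of 1.06 ± 0.34. In none of these 3 did the groups overlap. The 2 lower ones, named after their values were seen, were miR-291a-3p of the miR-290-295 cluster, at -0.69 (log2 fold change, edgeR unadjusted p = 0.0361), and the endothelial marker miR-126a-3p. The latter stood at 9349 and 6012 CPM in control F3 and at 4428 and 3501 CPM in MEHP F3, both MEHP libraries below both controls, a log2 fold change of -0.98 ± 0.42 (SE; edgeR unadjusted p = 0.0312). The part of endothelial cells in the F3 values was not tested. The 4 miR-200 members were all positive, 3 of them above control without overlap (8.58% of all 303), with a median of 0.95, which ran from 0.73 to 1.16 when any 1 library was left out. The medians of miR-290-295, X-linked and Sfmbt2 were 0.00, 0.08 and -0.09; without library 1 of control F3 they were -0.11, 0.90 and -0.34, and without library 2 they were 0.23, -0.32 and 0.46.

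**Figure D5:**
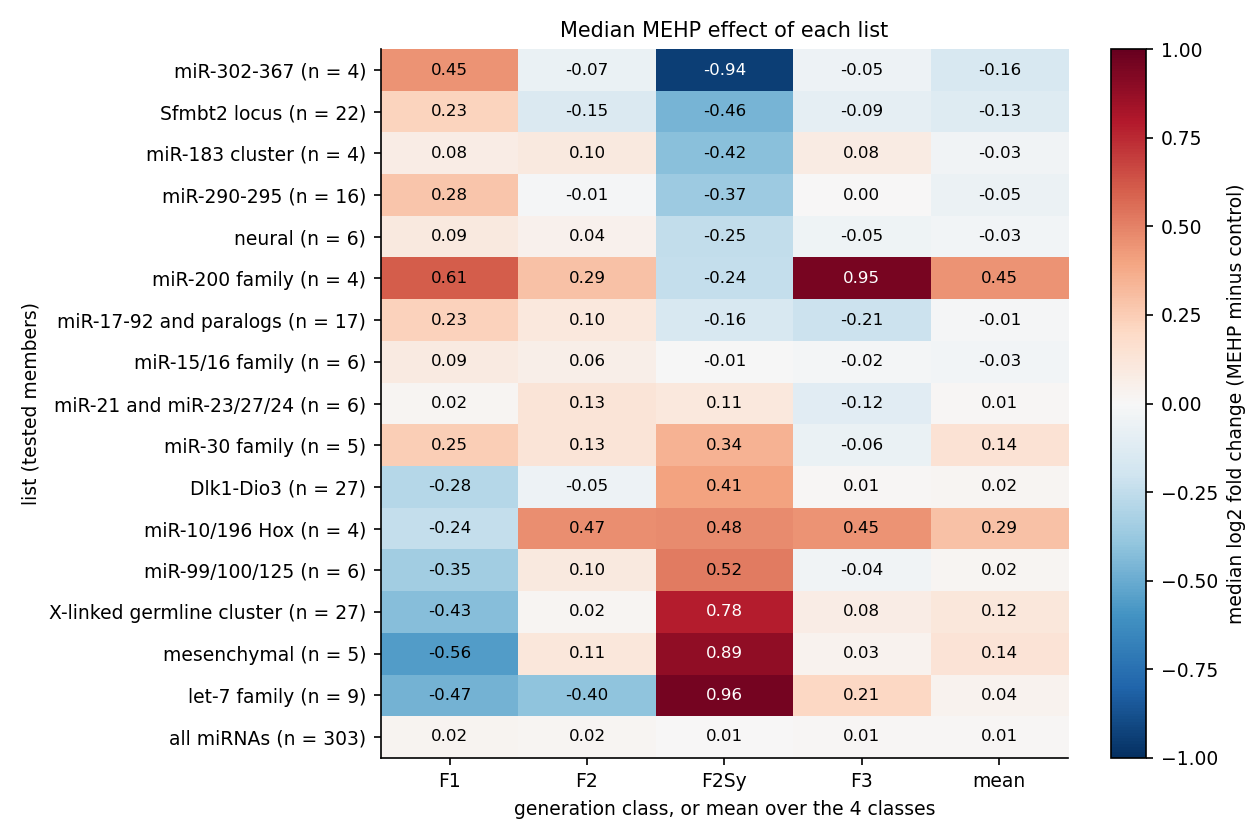
Median MEHP effect (colour and printed value, log2 fold change MEHP minus control) of each list with at least 4 tested members (rows, n in brackets) in each class and as the mean over classes (columns); the bottom row holds all 303 miRNAs. F2Sy shows the widest spread, from -0.94 for miR-302-367 to 0.96 for let-7, and the mean column stays between -0.16 and 0.45.

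A joint test of whether the MEHP effect differed between the 4 classes called none of the 303 miRNAs (0%; lowest edgeR adjusted p 0.986). At an unadjusted p under 0.05 stood 8 miRNAs (2.64%) by edgeR and 16 by DESeq2, which also called 0. The smallest p-values belonged to miR-199b-3p (unadjusted p = 0.0121), with class effects of -0.88, 0.11, 1.48 and 0.10 in F1, F2, F2Sy and F3, to miR-192-5p (0.0341) and to miR-199a-5p (0.0356). Only 17 miRNAs (5.61%) had 1 sign in all 4 classes, 9 positive and 8 negative. Among the 9 were miR-10a-5p, miR-194-5p, miR-27b-3p and miR-148a-3p, a regulator of Dnmt1 that stood between 0.02 and 0.13 in the classes. For miR-10a-5p the F1 effect of 0.76 came from MEHP libraries that were the highest and the lowest of the 16. Its sign in F1 is therefore uncertain. Among the 8 were miR-34b-3p and miR-34c-3p, which come from 1 transcript under p53 control, the latter at -0.02 in F2Sy. From the same transcript, miR-34c-5p was positive in F1 and had a mean effect of -0.06.

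The mean MEHP effect in germ cells was set against that in the somatic fraction for the 251 miRNAs listed in all 48 libraries. No difference between fractions was called (0%; edgeR, smallest adjusted p = 1.00), and 2 miRNAs (0.797%) had an unadjusted p under 0.05. These were miR-760-3p, with a difference of -0.58 ± 0.26, and miR-10a-5p, with 0.68 ± 0.31 (log2, PGC minus SC, SE). miR-10a-5p stood at 8542 to 13599.8 CPM in control SC and at 7453 to 17709 CPM in MEHP SC.

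Against germ cells of the lineage exposed to vinclozolin (VZN, 50 mg per kg body weight per day, 8 libraries of the same classes), no miRNA was called either (0%; lowest edgeR adjusted p 0.874). At an unadjusted p under 0.05 stood 13 miRNAs (4.29%) by edgeR and 18 by DESeq2, which also called 0. The X-linked miR-463-3p stood at 51, 76 and 147 CPM in MEHP and at 33, 50 and 80 CPM in VZN (lowest, median, highest), a log2 difference of 0.67 ± 0.20 (SE). miR-409-3p of the Dlk1-Dio3 cluster stood at -0.33 ± 0.13. The 2 lineages overlapped in both, as they did in all 303 tested. For miR-10a-5p and miR-204-5p the VZN libraries ran from 1231 to 4228 CPM and from 37 to 432 CPM, and the log2 differences, MEHP minus VZN, were 0.27 ± 0.27 and 0.23 ± 0.32.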

How the data were processed

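Small RNAs under 100 bp were sequenced from 48 libraries, 16 of which are compared here. A single table with a count per miRNA and library was deposited by the authors; it holds 563 miRNAs, and per the file headers a count adds up all isomiRs of a miRNA with its canonical sequence. Bowtie 1.3.1 and mm39 are named in the submitters' processing notes. How miRNAs were annotated and counted is not stated there. The table lists no 0, and 7089 of its 27024 cells are blank, by a rule not given. PCR reads are not independent molecules.

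Counts of the 303 miRNAs listed in all 24 PGC libraries entered edgeR 4.0.16 under R 4.3.3 (TMM factors, filterByExpr, robust quasi-likelihood fit of 12 groups with 12 residual degrees of freedom, biological coefficient of variation 0.336), two-sided, with Benjamini-Hochberg adjustment and calls at 0.05. CPM are counts per 1000000 listed counts of a library. DESeq2 1.42.0 was an alternative. The tests were run on simulated counts with the same spread for all miRNAs and the same MEHP change in every class. That check does not cover changes that differ between classes. RefSeq names matched 478 of 563 miRNAs.

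The comparison and the 30 lists were chosen with earlier results of these data known. Named are the 6 miRNAs per direction with the smallest p for the mean, 3 per class and for the difference between classes, 2 for the fractions and for VZN, the 12 most abundant, and up to 4 abundant members of a list. The 2 libraries of every PGC class differed by at least 351 in chi-square per degree of freedom (773 in the MEHP and control classes), so none was counted as a duplicate.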

Additional observations from a re-analysis of the deposited data

Results flagged for a closer look

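Of 28 sets of 8 libraries checked for a library far from the rest, 2 held one. The sets were the MEHP and the control values of the 6 miRNAs per direction with the smallest p for the mean. The listed totals and the numbers of listed miRNAs made up the rest. Chance gives about 1 in 20 for unselected normal values, whereas most of these were picked by p and all pool 4 classes. In MEHP germ cells miR-203-3p stood at 141.5 CPM in library 1 of F1, with the next library at 99 CPM. In the same group miR-126a-3p, the endothelial marker, stood at 11495 CPM in library 2 of F2, with the next library at 5568 CPM. The gap to the next library was 0.584 and 0.643 of the group's range, beside a critical value of 0.526 for 8 libraries.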

How the results depend on the processing

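Calls numbered 0 in each comparison under RLE factors, library size alone and DESeq2 (not run for the fractions). For the MEHP and control comparisons within PGC they also numbered 0 with blanks as 0 without a filter, blanks at the smallest listed count, the 16 libraries alone, all 48 libraries, and without library 2 of VZN F2Sy. The same held for the class comparisons adjusted together. Each of the 16 MEHP and control libraries was left out in turn (for VZN the 8 MEHP ones), with the remaining library of its class assumed to vary like the others. In the comparisons with VZN and with SC no VZN or SC library was left out. This gave 0 to 1 calls for the mean over classes (miR-10a-5p without library 2 of MEHP F1) and 0 for the other comparisons. Otherwise the smallest adjusted p came closest to 0.05 with all 48 libraries, at 0.0601 in F3 and 0.0946 in F2Sy. No named miRNA chosen by its p changed sign in any alternative. Unadjusted counts in F2Sy ran from 12 (without library 2 of control F2Sy) and 15 (without library 2 of MEHP F2Sy) to 34 with 1 of the 16 left out, and were 38 in the 16 libraries alone and 40 without library 2 of VZN F2Sy, against 27. Those for the mean ran from 0 (without library 1 of MEHP F1) and 1 (without library 2 of control F2Sy) to 9 (without library 1 of control F3). The replicate number as a block, a single shift shared by all groups, gave 0 calls in each comparison. Such a block cannot take up a pairing confined to a single class. Deviations of same-numbered MEHP and control libraries correlated with r of 0.06, 0.06, 0.62 and 0.02 in F1, F2, F2Sy and F3, and the labels do not say that numbers pair libraries. List medians and correlations without single libraries were added after the data were seen. With 2 libraries per class, the median half-width of 0.83 log2 units limits what the class comparisons could detect.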

Other observations

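Families outside the clusters described above stood near control as a mean over classes. The miR-30 family had 5 of 5 members positive with a median of 0.14 (log2 fold change, MEHP minus control), from miR-30c-5p at 0.09 to miR-30a-5p at 0.24. The p53-responsive miR-34a-5p, at 5235 ± 744 CPM in control and 4647 ± 1008 CPM in MEHP (SD, n = 8 each), stood at -0.16 ± 0.14 (SE), and the Bcl2-targeting miR-15/16 family had 3 of 6 members positive with a median of -0.03. miR-29a-3p, which targets de novo DNA methyltransferases, stood at 0.12 ± 0.14 and the Kit-targeting pair miR-221-3p and miR-222-3p at 0.01 ± 0.20 and -0.17 ± 0.16. Of other pairs, miR-103-3p stood at -0.01 ± 0.16 and miR-130a-3p at -0.17 ± 0.17. The neural-type miRNAs had 3 of 6 members positive with a median of -0.03, and the miR-99, miR-100 and miR-125 families had 4 of 6 and 0.02. The leukocyte miRNAs miR-150-5p and miR-155-5p stood at -0.31 ± 0.25 and 0.11 ± 0.30, and the red blood cell miR-451a at 0.27 ± 0.38. The liver list (miR-122) and the hypoxia list (miR-210) had no tested member.

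Outside the test, the 18 miRNAs listed in all 16 libraries but not in all 24 had mean log2 fold changes from -0.37 to 0.42 when fitted in the 16 libraries, with no unadjusted p under 0.178 (edgeR). Of the 128 listed in some of the 16, 44 were listed in more MEHP libraries, 53 in more control libraries and 31 in as many. The largest difference was 3 of 8 libraries, for miR-190b-5p (3 MEHP and 6 control) and miR-383-5p (4 MEHP and 1 control), both named after their values were seen. A blank is not known to be 0, so these counts give no direction of level.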
